A study of Rattus norvegicus with 12 samples.

Results

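The genes described here handle taurine and choline, the sources of part of the organic solutes that protect cells of the renal medulla. They are 8 genes chosen by name, of 14506 genes tested: the taurine transporter Slc6a6, the taurine-synthesis enzymes Cdo1 and Csad, the choline transporters Slc44a1, Slc44a2 and Slc5a7, the choline kinase Chka and the glycerophosphodiesterase Gdpd5. The rule names genes by function and uses no measured value, although earlier results of these data were known when it was set. All 8 genes were measured, and where a gene had several probe sets the brightest on average was read.

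Cells of the inner medulla balance hyperosmolar surroundings with small neutral solutes, among them taurine, sorbitol, myo-inositol, betaine and glycerophosphocholine. Taurine is taken up together with sodium and chloride by Slc6a6, or made from cysteine through cysteine dioxygenase (Cdo1) and cysteine sulfinate decarboxylase (Csad). Choline enters cells through Slc44a1, Slc44a2 and the high-affinity transporter Slc5a7, and Chka phosphorylates it on the way to phosphatidylcholine. Breakdown of phosphatidylcholine gives glycerophosphocholine, which Gdpd5 splits, and oxidation of choline gives betaine. Nfat5, also called TonEBP, is the transcription factor that binds tonicity-responsive enhancers (TonE) and controls several osmolyte genes.

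The cells were primary cultures of kidney inner medullary collecting duct (IMCD) from male rats of strain SD, 7 weeks old, with no genetic alteration named in the labels. All cultures were first kept for 4 days at 640 mOsm/kg. The 4 groups were then held for 24 h or 48 h either at 640 mOsm/kg or in medium lowered to 300 mOsm/kg, with 3 samples and 3 Affymetrix Rat Gene 1.0 ST arrays in each group. The labels name no separate animals or cultures for the samples of a group, so the tests see only the spread between those samples, part or all of which could be technical.

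Among the members, the upstream sequence of Slc6a6 is shown because its transcript fell and because the stretch before its start held a match to the TonE consensus. RefSeq's promoter table for build GRCr8 matched 7 of the 8 members, all but Cdo1. The 250 bases before the start of Slc6a6, chr4:125752252-125752501 on the plus strand, read as follows. Capitals mark the match, whose consensus reads on the opposite strand.
Slc6a6: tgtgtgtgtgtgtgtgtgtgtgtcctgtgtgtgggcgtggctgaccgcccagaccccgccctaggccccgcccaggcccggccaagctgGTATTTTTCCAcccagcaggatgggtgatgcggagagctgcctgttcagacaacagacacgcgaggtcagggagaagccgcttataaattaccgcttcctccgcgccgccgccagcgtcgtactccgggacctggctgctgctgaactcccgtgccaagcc
The match lay from -161 to -151 relative to the start. It contains the core TGGAAA, and both strands of each window were searched. The TonE consensus occurred in 5.17% and the core in 19.7% of the 33469 promoter windows of this length. Slc44a2 had a core match without the full consensus, and the windows of Csad, Slc44a1, Slc5a7, Chka and Gdpd5 held neither. Nor did those of Slc5a3, Chdh and Gpcpd1, genes outside the 8 that are described further on and of which Slc5a3 and Chdh fell. Akr1b1 and Slc16a6, also described further on, had no entry in the promoter table and were not searched. These matches describe letters only and no binding was measured.

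The levels are deposited log2 values, and the arrays did not share a scale. Array medians over the tested genes ran from 6.81 to 6.97 at 48 h, and from 7.43 to 7.58 on 4 arrays at 24 h, while replicate 1 at 300 and replicate 3 at 640 stood at 6.89 and 6.90. Changes between osmolalities are given on the deposited values even so, and these differences of scale enter the spread that the tests use. A gene missed on the deposited values can thus depend on the scale of the arrays. Where centring each array on its own median altered a call of a member or pathway gene, the centred result is given as well. A gene is said to have fallen or risen at 300 only where limma with Benjamini-Hochberg adjustment over all 14506 genes gave an adjusted p under 0.05. The water channel Aqp2, a check of the response to osmolality, fell over both times (log2 change -4.02 ± 0.225 SE, limma adjusted p = 3.88e-07). Of 12 principal cell markers, all were measured. Their mean log2 level above the array median was 2.72 to 2.91 at 640 and 1.99 to 2.23 at 300 after 24 h, and 3.11 to 3.28 against 2.05 to 2.39 after 48 h. Over both times 10 of these markers were lower at 300 and 2 higher. Aqp2, Aqp3, Avpr2 and Slc14a2 fell (-4.02 to -1.34), where 0.869% of all genes fell. The others did not pass, among them Aqp4 (-0.33), Scnn1a (-0.24), Hsd11b2 (-0.15), Krt8 (0.33) and Krt18 (0.30). On centred arrays 5 of the 12 fell, where 3.43% of all genes passed in either direction. The log2 of the summed level of the 12 markers above the array median overlapped between the osmolalities at both times (7.44 to 7.81 at 640 and 7.20 to 7.69 at 300 after 24 h, and 7.80 to 8.04 and 7.54 to 7.81 after 48 h). In whole cultures, fewer cells of a type and less RNA per cell cannot be told apart.

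Slc6a6 and Cdo1 fell when the effect of osmolality was averaged over both times, and they were the 2 members of 8 that passed that test, against 1.28% of all genes (0.869% that fell). Slc6a6 was 1.84-fold and Cdo1 2.08-fold lower at 300, although whether Cdo1 was above background there is not known. The other 6 members, including all 4 genes of choline uptake and phosphorylation, did not pass at 24 h, at 48 h or over both times. At 24 h 0 of 8 members passed, against 0.0896% of all genes, and at 48 h 1 passed, Cdo1, against 0.717%. On centred arrays the counts were 0, 2 and 2 for 24 h, 48 h and both times, against 0.655%, 1.85% and 3.43% of all genes. At an unadjusted p under 0.05 the limma counts on the deposited values were 2, 3 and 2 members, and 421, 687 and 1016 of the 14506 genes. The median change of the 8 members was -0.10 at 24 h and -0.36 at 48 h, beside -0.02 and 0.02 over all genes.

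**Figure D1:**
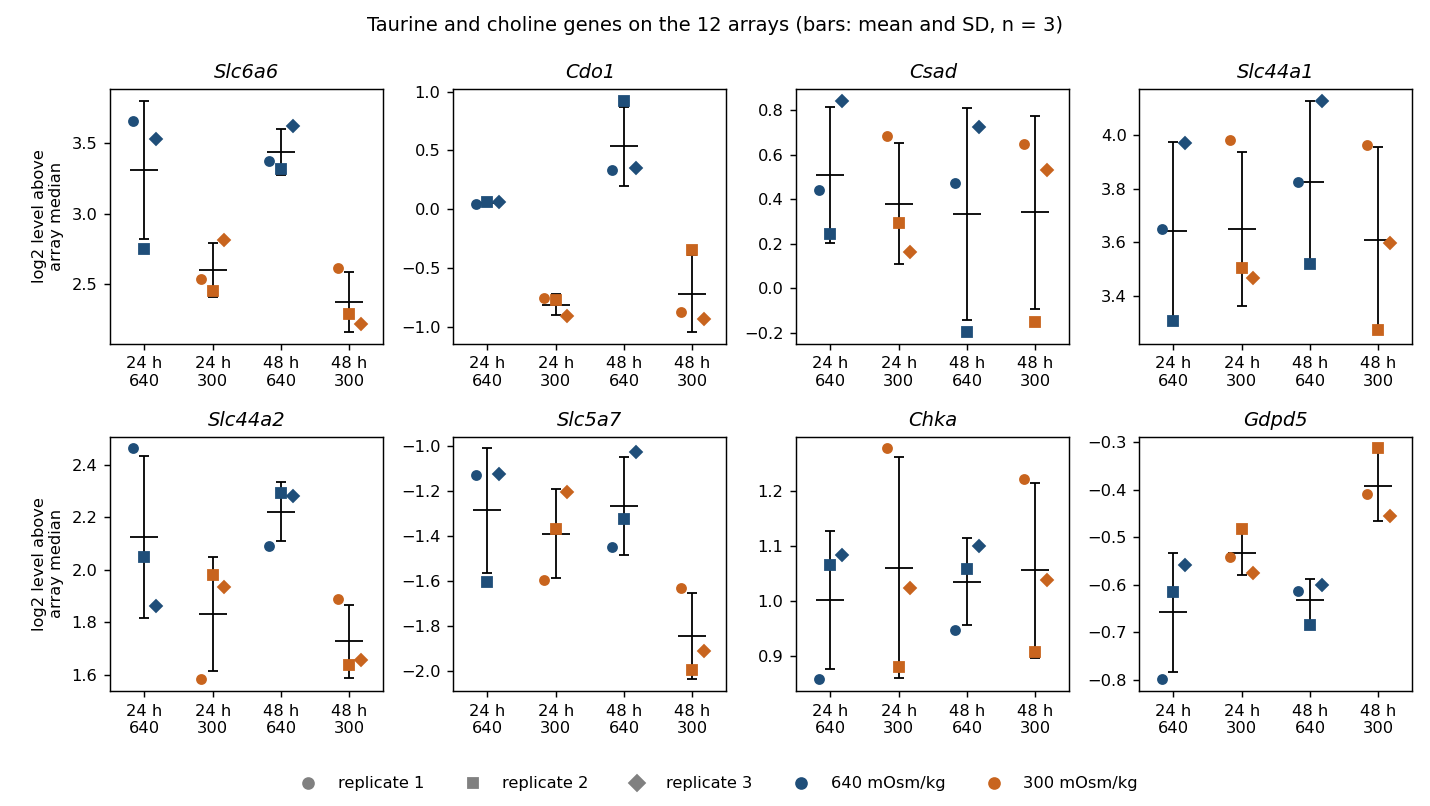
Log2 level above the array median of each of the 8 genes (vertical axis, a scale of its own per gene) on the 12 arrays, by time and osmolality, with the mean and SD of 3 arrays as bars. Cdo1 lies between 0.04 and 0.92 at 640 and between -0.94 and -0.34 at 300, and Slc6a6 is lower at 300 at both times apart from replicate 2 at 640 after 24 h, at 2.75.

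Slc6a6, the sodium- and chloride-coupled taurine transporter, stood at 11.08, 10.32 and 10.42 on the 3 arrays at 640 after 24 h and at 9.43, 10.04 and 10.28 at 300. After 48 h it stood at 10.18, 10.18 and 10.59 at 640 and at 9.56, 9.17 and 9.04 at 300. Every array at 300 lay below every array at 640 of the same time, by a narrow margin at 24 h. Relative to the array medians the groups at 24 h did overlap, since replicate 2 at 640 (2.75) was below replicate 3 at 300 (2.82). At 48 h the values above the median were 3.37, 3.32 and 3.62 at 640 and 2.62, 2.29 and 2.22 at 300, and these groups stayed apart.

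After 24 h Slc6a6 averaged 10.61 ± 0.413 (SD, n = 3) at 640 and 9.92 ± 0.438 at 300, and the log2 change of -0.69 ± 0.266 SE missed the threshold (limma adjusted p = 1.000, and 0.322 with arrays centred). After 48 h the means were 10.32 ± 0.239 and 9.26 ± 0.268, a 2.09-fold difference (log2 change -1.06, 95% interval -1.63 to -0.49, limma adjusted p = 0.120, but 0.0202 and past the threshold with arrays centred). That centred call was lost without replicate 2 (limma adjusted p = 0.0926) or 3 (0.116) at 300 of 48 h and without replicate 1 (0.0747) or 3 (0.106) at 640 of 48 h. Over both times Slc6a6 fell by 0.88 on the log2 scale (interval -1.28 to -0.47, limma adjusted p = 0.0298, and 0.00377 on centred arrays). With single arrays left out the log2 change of Slc6a6 stayed between -0.97 and -0.76. The call on the deposited values was lost without replicate 1 at 640 of 24 h (limma adjusted p = 0.0950), without replicate 2 (0.0952) or 3 (0.108) at 300 of 48 h, and without replicate 1 (0.0658), 2 (0.0622) or 3 (0.0978) at 640 of 48 h. With the replicate number as a block it had an adjusted p of 0.0802, while on centred arrays it passed with any 1 of the 12 arrays left out (largest limma adjusted p = 0.0159).

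Ordered by mean level above the array median, Slc6a6 was highest at 640 after 48 h (3.44 ± 0.162, SD, n = 3) and at 640 after 24 h (3.31 ± 0.489), then at 300 after 24 h (2.60 ± 0.190), and lowest at 300 after 48 h (2.38 ± 0.213). The neighbours of one osmolality did not differ beyond their spread. The change at 48 h minus that at 24 h was -0.37 (interval -1.17 to 0.44, limma adjusted p = 1.000), so a difference between the times was not detectable with 3 arrays per group.

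Cdo1, the dioxygenase that oxidises cysteine to cysteine sulfinate at the start of taurine synthesis, stood at 7.47, 7.63 and 6.96 at 640 and at 6.14, 6.81 and 6.55 at 300 after 24 h. After 48 h it stood at 7.14, 7.79 and 7.32 at 640 and at 6.06, 6.53 and 5.89 at 300. The groups did not overlap at either time. Relative to the array medians the 3 arrays at 640 after 24 h came to 0.04, 0.06 and 0.06, and those at 300 to -0.75, -0.77 and -0.91. The separation at 24 h was thus wider against the spread once the scale of each array was removed.

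After 24 h Cdo1 averaged 7.35 ± 0.354 (SD, n = 3) at 640 and 6.50 ± 0.341 at 300. The difference of -0.85 ± 0.262 SE missed the threshold (limma adjusted p = 0.703, and 0.0702 on centred arrays). After 48 h the means were 7.42 ± 0.337 and 6.16 ± 0.334, and Cdo1 fell 2.39-fold (log2 change -1.26, interval -1.82 to -0.69, limma adjusted p = 0.0407, and 0.00222 on centred arrays). Over both times it fell by 1.05 on the log2 scale (interval -1.45 to -0.66, limma adjusted p = 0.00813), and this call held with any 1 array left out (largest limma adjusted p = 0.0366). The call at 48 h was lost on the deposited values without replicate 1 (limma adjusted p = 0.184), 2 (0.0546) or 3 (0.276) at 300 of 48 h, without replicate 1 (0.0700), 2 (0.235) or 3 (0.132) at 640 of 48 h, and without replicate 3 at 300 (0.0704) or replicate 1 at 640 (0.0715) of 24 h. On centred arrays it passed with any 1 array left out (largest limma adjusted p = 0.0221).

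By mean level above the array median, Cdo1 was highest at 640 after 48 h (0.54 ± 0.336, SD, n = 3), followed by 640 after 24 h (0.05 ± 0.0109), 300 after 48 h (-0.72 ± 0.326) and 300 after 24 h (-0.81 ± 0.0871). The pair at 300 did not differ beyond its spread. At 640 the 48 h arrays were all above the 24 h arrays on this scale, but the change over time of 0.48 did not pass (limma adjusted p = 0.666). The change at 48 h minus that at 24 h was -0.40 (SE 0.371, limma adjusted p = 1.000).

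Csad, the decarboxylase that follows Cdo1, gave values that overlapped between the osmolalities at both times. It stood at 7.87, 7.82 and 7.74 at 640 and at 7.57, 7.88 and 7.63 at 300 after 24 h, and at 7.28, 6.67 and 7.70 at 640 and 7.59, 6.72 and 7.35 at 300 after 48 h. Replicate 2 was the lowest array of both groups at 48 h, and it widened the spread there. The log2 changes of Csad were -0.12 at 24 h and 0.01 at 48 h, with a 95% interval of -0.46 to 0.35 over both times. An average change of Csad beyond 1.37-fold was outside this interval, while the fall of Cdo1 averaged 2.08-fold.

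**Figure D2:**
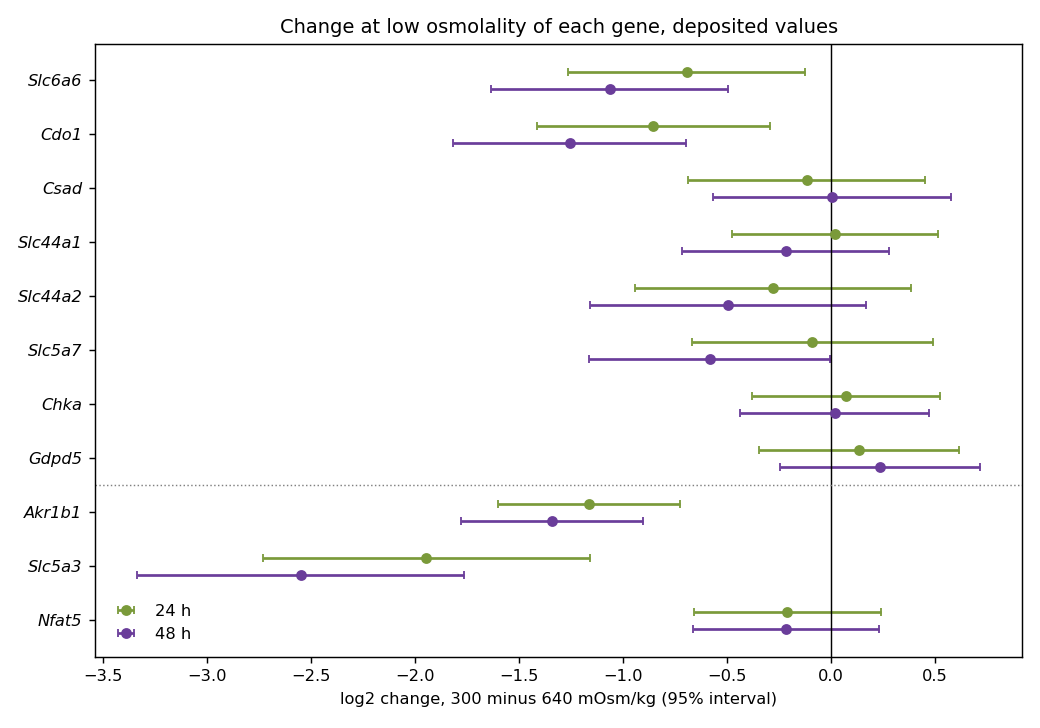
Log2 change of each gene, 300 minus 640 mOsm/kg, on the deposited values (horizontal axis), with 95% intervals at 24 h and 48 h. Slc6a6 (-0.69 and -1.06) and Cdo1 (-0.85 and -1.26) lie left of 0 with their intervals at both times, as does Slc5a7 at 48 h (-0.58), and the sorbitol and myo-inositol genes Akr1b1 (-1.16 and -1.34) and Slc5a3 (-1.94 and -2.55) are shown for comparison.

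The fall of Slc6a6 was set against those of Akr1b1, the aldose reductase that makes sorbitol, and Slc5a3, the sodium and myo-inositol cotransporter, within each array, so that the scale of the array cancelled. Over both times Akr1b1 fell by 1.25 and Slc5a3 by 2.25 on the log2 scale (limma adjusted p = 0.00023 for each). A second probe set of Akr1b1, at a mean level of 8.67 against 12.49 for the one used, had larger changes. They were -1.45 at 24 h and -1.71 at 48 h, against -1.16 and -1.34. Since probe sets of 1 gene differed in this way, the comparisons between genes that follow are of probe set values only. The change of Slc6a6 was smaller than that of Slc5a3 by 1.37 on the log2 scale, with differences of 1.25 at 24 h and 1.49 at 48 h (two-sided exact permutation of osmolality within time, 400 arrangements, p = 0.005, the smallest possible, adjusted p = 0.01 over 2 comparisons). Against Akr1b1 the difference was 0.37, with 0.47 at 24 h and 0.28 at 48 h, and did not pass (exact permutation p = 0.0750, adjusted p = 0.0750). That second comparison passed under other settings: it was 0.54 with the mean of the 2 Akr1b1 probe sets (exact adjusted p = 0.02), 0.37 after quantile normalization (0.04) and 0.39 after cyclic loess (0.03). It also passed without replicate 1 at 300 of 24 h (0.49, exact adjusted p = 0.035) and without replicate 3 at 300 of 48 h (0.46, exact adjusted p = 0.035). The mRNA of Nfat5 itself had a log2 change of -0.21 at 24 h and -0.22 at 48 h (limma adjusted p = 1.000 for each).

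None of the 3 choline transporters passed at either time, and their changes were not tested against those of Slc6a6 or Cdo1. Slc44a1, a broadly made choline transporter of the plasma membrane and mitochondria, stood at 11.08, 10.88 and 10.87 at 640 and at 10.87, 11.09 and 10.93 at 300 after 24 h. After 48 h it stood at 10.63, 10.39 and 11.10 at 640 and at 10.90, 10.15 and 10.42 at 300. The groups overlapped at both times, and replicate 2 was again the lowest array of both groups at 48 h. The log2 changes were 0.02 and -0.22, and the interval over both times was -0.45 to 0.25.

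Slc44a2, a choline transporter of the same family, stood at 9.89, 9.62 and 8.76 at 640 and at 8.47, 9.56 and 9.40 at 300 after 24 h, with the lowest value of each group on its low-median array. After 48 h it stood at 8.90, 9.16 and 9.25 at 640 and at 8.83, 8.52 and 8.48 at 300. The groups overlapped at 24 h and not at 48 h. The log2 change at 48 h, -0.50 ± 0.310 SE, did not pass (limma adjusted p = 1.000, and 0.334 on centred arrays). Over both times it was -0.39, with an interval of -0.86 to 0.08 on the deposited values and -0.67 to -0.12 on centred arrays (limma adjusted p = 0.149 there). A second probe set of Slc44a2 gave -0.05 at 24 h and -0.49 at 48 h, against -0.28 and -0.50 for the one used.

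Slc5a7, the high-affinity choline transporter best known from cholinergic nerve endings, stood at 6.30, 5.96 and 5.77 at 640 and at 5.29, 6.22 and 6.26 at 300 after 24 h. The arrays at 48 h gave 5.36, 5.54 and 5.94 at 640 and 5.31, 4.88 and 4.91 at 300. The groups at 24 h overlapped, and at 48 h they were apart by a narrow margin. Its change was -0.09 at 24 h and -0.58 ± 0.271 SE at 48 h (limma adjusted p = 1.000, and 0.219 on centred arrays). Over both times it was -0.33, with an interval of -0.74 to 0.07. No detection calls were used, so whether this probe set was above background in these cells is not known. The same holds for Gpcpd1 and Slc16a6, which also had low values. It holds too for Gdpd5 (group means of 6.25 to 6.78) and for Cdo1 at 300 (6.50 after 24 h and 6.16 after 48 h).

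Chka, the kinase that commits choline to phosphatidylcholine synthesis, stood at 8.29, 8.64 and 7.98 at 640 and at 8.17, 8.46 and 8.49 at 300 after 24 h. At 48 h its values were 7.75, 7.93 and 8.07 at 640 and 8.16, 7.78 and 7.86 at 300. The groups overlapped at both times on either scale. Its log2 changes were 0.07 and 0.02, and the interval over both times, -0.27 to 0.36, left room for an average change of up to 1.29-fold.

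Gdpd5, which splits glycerophosphocholine into choline and glycerol phosphate, stood at 6.63, 6.95 and 6.34 at 640 and at 6.35, 7.10 and 6.89 at 300 after 24 h. At 48 h the values were 6.19, 6.18 and 6.37 at 640 and 6.53, 6.56 and 6.37 at 300. The deposited values at 48 h met at replicate 3 of the 2 groups. Relative to the array medians the 3 arrays at 300 (-0.41, -0.31 and -0.46) were all above those at 640 (-0.61, -0.68 and -0.60). The log2 changes were 0.14 at 24 h and 0.24 ± 0.225 SE at 48 h, neither of which passed (limma adjusted p = 1.000 for each, and 0.876 at 48 h on centred arrays).

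Counted over the members, the arrays at 300 and 640 did not overlap for 2 of 8 genes at 24 h, against 4.27% of all genes, and for 4 of 8 at 48 h, against 13.8%. In all of these the level was lower at 300, a direction in which 2.69% and 6.62% of all genes were apart. On centred arrays the counts were 1 at 24 h, against 8.56%, and 5 at 48 h, against 14.8%, with 4 lower (7.02% of all genes) and 1, Gdpd5, higher (7.83%). Slc6a6 and Cdo1 were lower without overlap at both times on the deposited values, against 1.03% of all genes, and on centred arrays Cdo1 was, against 2.43%. Among all genes, 0.779% had a lower change than Slc6a6 and 0.510% a lower one than Cdo1 at 48 h.

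**Figure D3:**
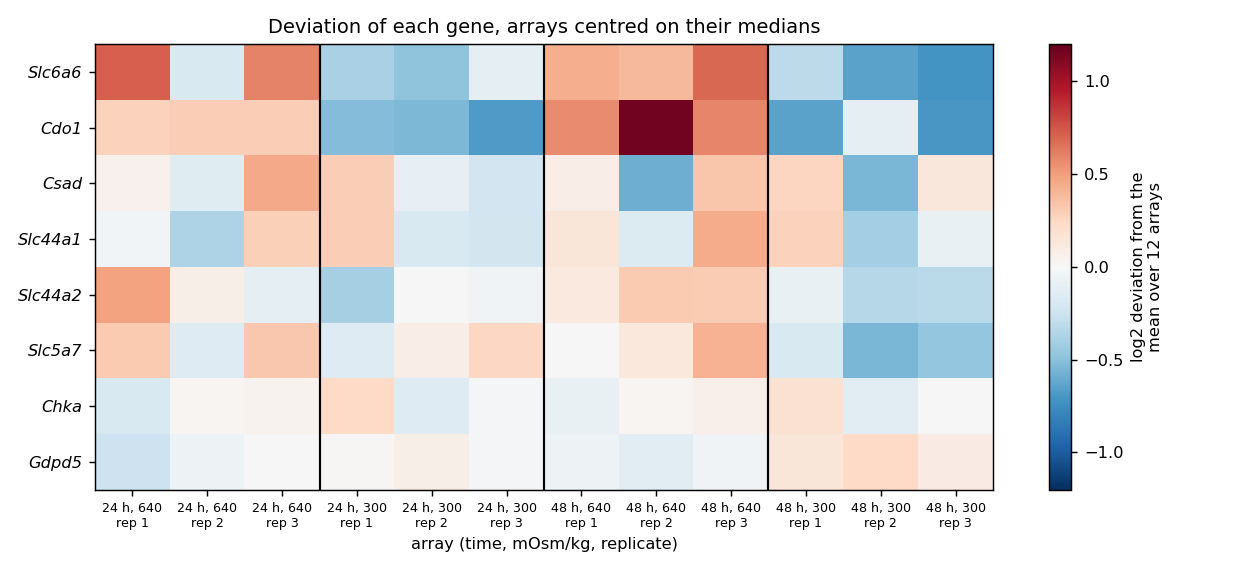
Deviation of each of the 8 genes from its own mean over the 12 arrays (colour, log2 scale, arrays centred on their medians), with arrays in columns by time, osmolality and replicate. Slc6a6 and Cdo1 are blue on all 6 arrays at 300, while Csad and Slc44a1 are low on replicate 2 of both osmolalities at 48 h.

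Between 24 h and 48 h the deposited levels of the members moved with the array medians. The log2 changes over time of the 8 members ran from -0.59 to 0.06 at 640 and from -0.89 to -0.29 at 300, where the median change of all genes was -0.41 and -0.38. On centred arrays they ran from -0.18 to 0.48 and from -0.46 to 0.14. By limma 0 members and 0 of all genes (0%) passed for either osmolality on the deposited values. At an unadjusted p under 0.05 there were 4077 genes at 640 and 3369 at 300, among them 1 and 2 members. On centred arrays 20 genes (0.138%) and 37 genes (0.255%) passed, and the smallest adjusted p of a member was 0.666 and 0.590. The difference between the osmolality effects of the times passed for 0 members and 0 genes (0%) in limma, with 64 genes at an unadjusted p under 0.05, and for 4 genes (0.0276%) and 0 members on centred arrays.

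Further genes of the same pathways were read from lists drawn up by function. Of 17 measured genes of taurine and cysteine handling (18 listed), 8 were lower and 9 higher at 300 after 24 h. Among them 1 rose, beside 2 of all 14506 genes (0.0896% passed in either direction). The gene that rose was Slc16a6, a carrier of the monocarboxylate transporter family. It stood at 5.35, 5.61 and 5.07 at 640 and at 6.17, 6.89 and 6.84 at 300 after 24 h, and at 4.78, 5.05 and 4.93 at 640 and 5.71, 5.51 and 5.64 at 300 after 48 h. All arrays at 300 were above those at 640 of the same time. Slc16a6, whose background is likewise unknown, rose 2.44-fold at 24 h (log2 change 1.29 ± 0.224 SE, limma adjusted p = 0.0469, and 0.000557 on centred arrays) and had 0.70 at 48 h (0.364, and 0.0206 on centred arrays). The centred call at 48 h was lost without replicate 1 (limma adjusted p = 0.0883), 2 (0.0536) or 3 (0.117) at 300 of 48 h and without replicate 1 (0.0991) or 3 (0.0995) at 640 of 48 h. The call at 24 h on the deposited values held only without replicate 1 at 300 (0.00748) or replicate 2 at 640 (0.0398) of 24 h. It was lost without any 1 of the other 10 arrays, with limma adjusted p from 0.0824 to 0.286. The call at 24 h was also lost when only the groups compared were fitted (limma adjusted p = 0.846). The rise over both times had limma adjusted p = 0.0036.

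In the same list Slc7a11, the cystine and glutamate exchanger, had log2 changes of 1.01 at 24 h and 0.65 at 48 h (limma adjusted p over both times = 0.0997, but 0.00247 and past the threshold with arrays centred). At 24 h Slc7a11 missed the threshold on the deposited values (limma adjusted p = 0.703) and passed on centred arrays (0.0326). At 48 h it passed on neither scale. Cbs, which starts the transsulfuration of homocysteine to cysteine, had -0.48 and -0.81 (limma adjusted p over both times = 0.0529). The glutamate and cysteine transporter Slc1a1 had -0.33 and -0.53, and neither passed. At 48 h 11 of the 17 genes were lower and 0 passed, against 0.717% of all genes. The list's median change was 0.01 at 24 h and -0.13 at 48 h, beside -0.02 and 0.02 over all genes. Of 15 measured genes of choline uptake and phosphatidylcholine synthesis (21 listed), 0 passed in limma at either time, on deposited or centred values. For all genes the shares at 24 h and 48 h were 0.0896% and 0.717% on deposited values, and 0.655% and 1.85% on centred values. In this list Cept1, which joins the choline or ethanolamine head group to diacylglycerol, had -0.49 and -0.57, and Lpcat1, a lysophosphatidylcholine acyltransferase, 0.41 and 0.22. Pcyt2, of the ethanolamine branch, had -0.35 and -0.31, and the organic cation transporter Slc22a2 0.34 and 0.12.

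Of 18 measured genes of glycerophosphocholine, phospholipase and betaine metabolism (24 listed), 1 rose and 1 fell over both times, beside 59 and 126 of all 14506 genes (1.28% in either direction). The one that rose was Gpcpd1, a phosphodiesterase that, like Gdpd5, splits glycerophosphocholine. Gpcpd1 stood at 5.68, 5.54 and 5.32 at 640 and at 6.41, 6.21 and 6.78 at 300 after 24 h, and at 5.00, 5.00 and 4.92 at 640 and 6.05, 6.06 and 6.00 at 300 after 48 h. The groups were apart at both times, with little spread at 48 h. Its log2 change was 0.95 ± 0.192 SE at 24 h (limma adjusted p = 0.104), 1.06 ± 0.192 at 48 h (0.0138), where it rose 2.09-fold with its background unknown, and 1.01 ± 0.135 over both times (0.000972). The call over both times held with any 1 array left out. That at 48 h was lost without any 1 of the 6 arrays of that time (limma adjusted p from 0.0644 to 0.0884) and with the replicate block (0.0801).

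The gene of this list that fell was Chdh, the choline dehydrogenase that starts the oxidation of choline to betaine. Chdh stood at 9.26, 8.90 and 8.67 at 640 and at 7.77, 8.40 and 8.23 at 300 after 24 h, and at 9.10, 8.47 and 9.15 at 640 and 8.20, 7.44 and 8.17 at 300 after 48 h. The groups did not overlap at either time. Chdh fell by 0.89 on the log2 scale over both times (log2 change -0.89 ± 0.193 SE, limma adjusted p = 0.0315, and 0.00503 on centred arrays). Its change of -0.81 at 24 h did not pass (limma adjusted p = 0.864, and 0.199 on centred arrays). That of -0.97 at 48 h missed on the deposited values (limma adjusted p = 0.216) but passed on centred arrays (0.0495). This centred call at 48 h held in 2 of 12 fits with 1 array left out. On the deposited values the call over both times was lost without replicate 3 at 300 (limma adjusted p = 0.0728) or replicate 1 at 640 (0.112) of 24 h. It was also lost without replicate 2 (0.100) or 3 (0.0584) at 300 of 48 h, and without replicate 1 (0.111) or 3 (0.102) at 640 of 48 h. On centred arrays the call over both times held with any 1 array left out. For comparison, the log2 changes of the 5 choline and glycerophosphocholine members over both times ran from -0.39 to 0.19. In the same list the phospholipase D gene Pld2 had -0.21 at 24 h and -0.32 at 48 h, and the cytosolic phospholipase A gene Pla2g4a -0.23 and -0.49, and neither passed.

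**Figure D4:**
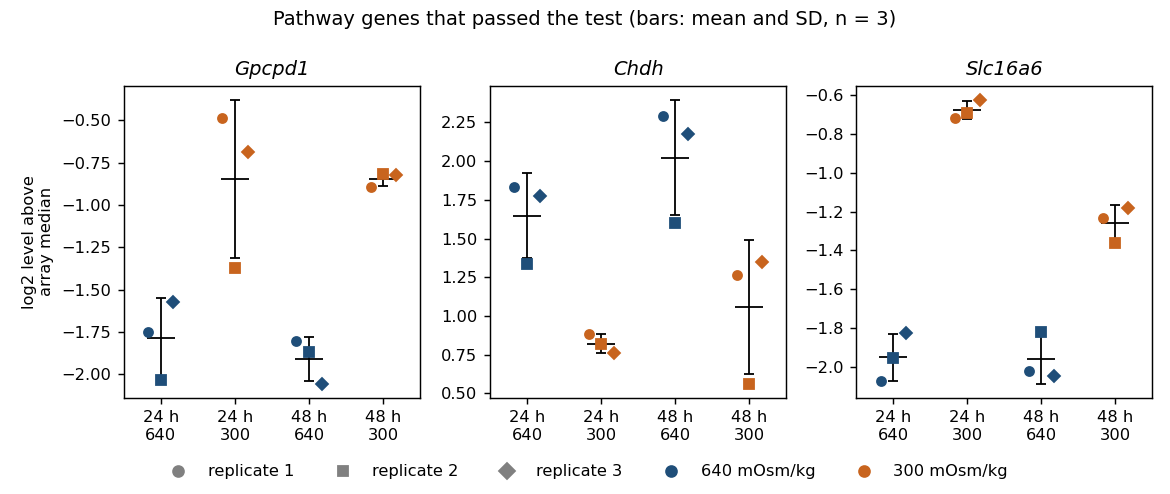
Log2 level above the array median (vertical axis) of Gpcpd1, Chdh and Slc16a6 on the 12 arrays by time and osmolality, with the mean and SD of 3 arrays as bars. Gpcpd1 and Slc16a6 are higher and Chdh lower on all arrays at 300 than on those at 640 of the same time.

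Markers of other cells were read beside these changes, and their part in the results was not tested. The mean log2 level of 4 measured thick and thin limb markers (5 listed) above the array median was -0.44 to 0.07 at 640 and -1.02 to -0.87 at 300 after 24 h, and -0.04 to 0.15 against -1.05 to -0.86 after 48 h. In that list Aqp1 and Slc12a1 fell over both times (log2 changes of -2.23 and -1.05). The 5 endothelial markers lay at -0.87 to -0.48 at 640 and -1.15 to -0.88 at 300 after 24 h, and at -0.71 to -0.20 and -1.12 to -0.73 after 48 h. The 5 macrophage markers lay at -0.39 to -0.20 and -0.72 to -0.42 after 24 h, and at -0.01 to 0.36 and -0.44 to -0.05 after 48 h. In the endothelial and macrophage lists 0 markers passed on the deposited values, against 1.28% of all genes over both times. On centred arrays 1 of each fell at 48 h and over both times, where 1.85% and 3.43% of all genes passed. The log2 of the summed macrophage level overlapped between the osmolalities (2.74 to 3.26 and 2.46 to 3.245 after 24 h, 3.09 to 3.65 and 2.70 to 3.20 after 48 h). That of the endothelial markers did not overlap. The 6 fibroblast markers were higher at 48 h (1.35 to 2.04) than at 24 h (0.28 to 0.87) and overlapped between the osmolalities. Intercalated cell (-2.87 to -1.92) and proximal tubule markers (-2.09 to -1.70), 5 of each, lay low on every array. In this mean level they overlapped between the osmolalities at both times. The log2 of the summed proximal tubule level was apart at 48 h (0.57 to 0.67 at 640 and 0.43 to 0.52 at 300) and overlapped at 24 h.

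The genes whose pattern was most like that of Slc6a6 over the 12 centred arrays were Rapgef6 (Pearson r = 0.968), Klhl14 (0.963), Tgfbr1 (0.959), Hsph1 (0.954) and Stat5a (0.953). Those most like Cdo1, named after its values were seen, were Lypd2 (0.974), Kcnj13 (0.962), Nupr1 (0.959), Angpt2 (0.957) and Ly6al (0.954). The highest r was lower for Chka and Gdpd5. For Chka it was 0.893 (Tshb), followed by Sec14l4, Teddm1a, Fam50a and Krt73 (0.854 to 0.875), and for Gdpd5 it was 0.928 (Klhl31), followed by Srpx, Epb41l3, Lrpap1 and Pparg (0.873 to 0.904). The arrays share their group means, and these values only describe the order of 14506 genes on 12 arrays.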

How the data were processed

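RNA of 12 samples was read on Affymetrix Rat Gene 1.0 ST arrays. The authors deposited 1 table of log2 values per probe set, made with RMA and Affymetrix Power Tools per the submitters' processing notes, with versions and batches not given in the sources used here. Groups and replicate numbers come from the sample titles; the short description codes of part of the samples name other osmolalities. Of 27596 probe sets, 15310 had 1 gene symbol, 323 several and 11963 none in the platform's gene table, which left 14506 genes, each at its brightest probe set.

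Genes were tested with limma 3.58.1 in R 4.3.3 (lmFit, eBayes, 1 mean per group, all 12 arrays) with calls made where the Benjamini-Hochberg adjusted p was under 0.05. Intervals cover 95%. The fit was tested on simulated data for the 48 h comparison only. The simulated arrays were independent and had no shifts of array scale, so that test does not cover these features of the data. Alternatives changed array scaling, the filter on dim genes, eBayes settings, array weights, probe sets, the samples fitted and the replicate block, and left out single arrays. Leaving out arrays on centred values was added after seeing the data. The 3 arrays per group limit the precision.

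The members, the pathway and marker lists, the comparison genes and the tests were chosen with earlier results of these data known. Named were all members, Akr1b1, Slc5a3, Nfat5 and Aqp2, per pathway list the genes called at either time and up to 4 with the smallest p, and the 5 genes most like Slc6a6, Chka and Gdpd5.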

Additional observations from a re-analysis of the deposited data

How the results depend on the processing

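The counts were higher under 3 scalings and under array weights, which leave the scale as deposited. With centred arrays, quantile normalization, cyclic loess and array weights in that order, limma called 95, 110, 98 and 139 genes at 24 h (13 on the deposited values), 269, 277, 304 and 415 at 48 h (104), 497, 541, 571 and 680 over both times (185), 4, 2, 2 and 4 for the difference between times (0), 20, 21, 22 and 9237 over time at 640 (0) and 37, 49, 43 and 10190 over time at 300 (0). Fitting only the groups compared gave 3 at 24 h, 217 at 48 h and 8 over time at 300, and eBayes with trend and robust settings gave 1 for the difference and 5 over time at 300. Without the pair of low-median arrays of 24 h the counts were 20, 250, 357, 1, 8104 and 7306 in the same order of comparisons. Leaving out 1 array gave 4 to 24, 51 to 145, 108 to 260, 0 to 3, 0 to 3891 and 0 to 3390 calls. The most extreme counts came without replicate 1 at 640 of 24 h (4 at 24 h, 108 over both times), replicate 2 at 300 of 48 h (51), replicate 3 at 640 of 24 h (3891) and replicate 1 at 300 of 24 h (24 and 3390). Of the calls over time with array weights, 9195 of 9237 at 640 and 10117 of 10190 at 300 were falls. The median change of all genes in those fits was -0.56 and -0.54. Without the low-median pair, 8079 of 8104 and 7276 of 7306 were falls, with medians of -0.57 and -0.54. The cause of the moves in these counts was not tested.

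The difference between Slc6a6 and Akr1b1 passed with the mean of probe sets (0.54), quantile normalization (0.37) and cyclic loess (0.39), and ran from 0.27 to 0.49 with 1 array left out. The difference between Slc6a6 and Slc5a3 passed in every setting run, from 1.21 to 1.52 with 1 array left out. Slc6a6 and Cdo1 were lower at 300 under every alternative run. Signs of members that did not pass turned for Csad at 48 h by quantile normalization (-0.0029), Slc44a1 at 24 h with array weights (-0.0548), and Slc5a7 at 24 h with array weights (0.0291) or without the low-median pair (0.106). With 1 array left out of the deposited values they turned for Csad at 48 h (-0.265 to 0.256) and over both times (-0.191 to 0.0697), Slc44a1 at 24 h (-0.0422 to 0.0885) and over both times (-0.201 to 0.000499), Slc44a2 at 24 h (-0.611 to 0.0578), Slc5a7 at 24 h (-0.257 to 0.227), Chka at 24 h (-0.0888 to 0.240), 48 h (-0.0942 to 0.0963) and over both times (-0.0351 to 0.129), and Gdpd5 at 24 h (-0.0239 to 0.354). With 1 array left out of the centred values Csad at 24 h turned as well (-0.281 to 0.0368).

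By the labels the replicate numbers pair no samples, and not every array correlated best with its own number. Deviations of same-numbered arrays correlated at -0.125, 0.844 and -0.206 for replicates 1, 2 and 3 at 24 h and at -0.231, 0.795 and -0.222 at 48 h. Replicate 1 at 300 correlated best with replicate 3 at 640 (0.825 at 24 h and 0.780 at 48 h), and replicate 3 at 300 with replicate 1 at 640 (0.576 and 0.631). Whether these arrays share a source is not given, so a call lost under the block of same numbers does not show a weaker effect. The exact permutations exchanged arrays freely within a time and kept no pairs together, so their p holds only for unpaired arrays. The same limit holds for the limma fits without a block. With the replicate number as a block limma called 15 genes at 24 h, 87 at 48 h, 170 over both times and 0 for the difference. The block could not be fitted for the changes over time. It ended the calls of Slc6a6 over both times (0.0802), Gpcpd1 at 48 h (0.0801) and Slc16a6 at 24 h (0.0991).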
